A study of Mus musculus with 4 samples.

Results

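The 10 genes described here act in meiotic recombination and chromosome pairing. They are Spo11, Mei4, Dmc1, Hormad1, Trip13, Smc1b, Stag3, Sycp2, Sycp3 and Sycp1, chosen by symbol from the 46406 rows of a table of chromatin accessibility over gene exons, in which each has 1 row. The table holds 4 ATAC-seq libraries from J1 mouse embryonic stem cells grown without a feeder layer, all at the passage labelled PN+8. In ATAC-seq the transposase Tn5 inserts adapters where DNA is open, so a gene's reads count insertions in its exons and are not a measure of its RNA. The 2 control libraries (control 1 and control 2) carry the genotype labels wild type1 and wild type2, and the other 2 (Zscan4 OE 1 and Zscan4 OE 2) come from cells that overexpress Zscan4, a zinc finger protein of the 2-cell embryo. The labels used here do not say how Zscan4 was delivered and driven, or whether replicates were separate cultures. The p-values therefore rest on a spread between libraries that may be technical only.

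In meiosis homologous chromosomes pair, break and exchange DNA. The enzyme SPO11 makes the double-strand breaks with the help of MEI4, and the recombinase DMC1 carries the broken ends into the homologue. The breaks form on a chromosome axis of meiotic cohesin, to which SMC1B and STAG3 belong, and of HORMAD1, which the ATPase TRIP13 later removes. SYCP2 and SYCP3 build the lateral elements of the synaptonemal complex on that axis, and SYCP1 spans the gap between the paired axes. Many of these genes are silent in embryonic stem cells, where DNA methylation and a complex with E2F6, MGA and MAX hold many germline genes off, while Trip13 is also used in mitosis. Zscan4 has been linked to meiotic genes acting at telomeres, and the comparison of the groups asks whether accessibility of the genes themselves differed.

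Reads were few. Library totals ran from 1061428 to 4899494 reads, of which 9.38% to 12.8% lay on exons, and the 10 genes together had 456 reads. The number of reads per gene and library was between 0 and 47. Zscan4c and Zscan4d were listed at 0 in all 4 libraries, so the overexpressed gene could not check the labels, and reads that match several near-identical copies may have been set aside. Of 10 stem cell marker genes 9, 10, 10 and 10 had reads in controls 1 and 2 and Zscan4 OE 1 and 2, with Dppa5a at 0 in control 1. Of 10 fibroblast markers, which would mark feeder cells, 8, 10, 10 and 10 had reads too, with Lum and S100a4 at 0 in control 1, so exon reads did not separate these cell types. Summed over each list, stem cell markers were at 55.6, 30.0, 67.9 and 41.6 reads per 1000000 library reads (RPM) in that order of libraries, and fibroblast markers at 53.7, 42.0, 44.1 and 39.4. Of 10 markers of the 2-cell-like state 6 were in the table. These had 2, 3, 3 and 7 reads, or 1.88, 1.03, 0.832 and 1.43 RPM. The 7 reads of Zscan4 OE 2 were all on Usp17lc.

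Promoters are shown first because they hold features that the choice by name did not use. RefSeq promoters of build GRCm38.p6, from 250 bases before to 50 after the start, matched 9 of the 10 genes, and Spo11 had none in the table used here. The Stag3 window lies inside the gene's span (138272514 to 138312397), so it belongs to a start within the span and not to its first base. The motifs searched on both strands were the E-box CACGTG, a site of MGA and MAX, and TTCCCGC, an E2F-type site. They do not overlap each other. CACGTG was in 4 of the 9 promoters (Hormad1, Stag3, Sycp3 and Sycp1) and in 7.24% of 27025 promoters, 1 per gene. TTCCCGC was in 4 (Hormad1, Stag3, Sycp3 and Smc1b) and in 4.66% of all. The 3 promoters with both motifs are printed below, beside that of Mei4, which has neither. Mei4 had higher exon values in both Zscan4 OE libraries and was picked with these values known. Bases are in lower case with CACGTG and TTCCCGC, or its reverse complement GCGGGAA, in capitals.
Hormad1 promoter (chr3:95559427-95559726, + strand): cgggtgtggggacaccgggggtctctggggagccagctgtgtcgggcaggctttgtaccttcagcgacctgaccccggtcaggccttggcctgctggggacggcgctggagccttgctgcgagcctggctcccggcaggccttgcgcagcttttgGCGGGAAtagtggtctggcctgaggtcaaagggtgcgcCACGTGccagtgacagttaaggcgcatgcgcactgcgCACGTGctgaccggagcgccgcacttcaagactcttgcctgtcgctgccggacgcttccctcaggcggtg
Sycp3 promoter (chr10:88459337-88459636, + strand): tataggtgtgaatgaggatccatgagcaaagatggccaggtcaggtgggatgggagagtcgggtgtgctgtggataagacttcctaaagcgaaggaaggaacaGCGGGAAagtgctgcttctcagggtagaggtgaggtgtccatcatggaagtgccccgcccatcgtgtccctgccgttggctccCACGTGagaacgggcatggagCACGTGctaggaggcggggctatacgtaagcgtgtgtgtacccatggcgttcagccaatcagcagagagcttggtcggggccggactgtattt
Stag3 promoter (chr5:138280259-138280558, + strand): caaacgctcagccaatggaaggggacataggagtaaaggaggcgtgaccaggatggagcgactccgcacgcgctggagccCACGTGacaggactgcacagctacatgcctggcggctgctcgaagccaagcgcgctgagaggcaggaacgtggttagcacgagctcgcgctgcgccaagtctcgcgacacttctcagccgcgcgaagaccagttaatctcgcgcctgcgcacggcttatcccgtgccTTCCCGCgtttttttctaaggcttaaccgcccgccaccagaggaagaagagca
Mei4 promoter (chr9:81863420-81863719, + strand): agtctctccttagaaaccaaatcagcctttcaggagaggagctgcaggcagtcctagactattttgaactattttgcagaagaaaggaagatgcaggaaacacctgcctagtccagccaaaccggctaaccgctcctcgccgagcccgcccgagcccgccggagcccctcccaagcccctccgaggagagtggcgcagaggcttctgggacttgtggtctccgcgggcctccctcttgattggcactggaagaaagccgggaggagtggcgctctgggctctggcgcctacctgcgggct

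Both motifs together stood in 3 of 9 of these promoters and in 0.463% of all. The 9 promoters held 10 to 34 CpG with a median of 21, while the median of all promoters was 7. Among the 11876 promoters with 10 CpG or more, CACGTG was in 11.1%, TTCCCGC in 9.33% and both in 0.994%. Dmc1, Trip13, Sycp2 and Mei4 had neither motif in this window, which says only that these letters are not there. The matches are a description of sequence. Hormad1, Sycp3 and Stag3, which share both motifs, had lower, overlapping and overlapping exon values in Zscan4 OE, as given below. Of the genes with neither motif, Mei4 was higher without overlap, while Dmc1, Trip13 and Sycp2 overlapped. Smc1b and Sycp1, with 1 of the motifs each, overlapped too. A link between motifs and values was not tested.

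None of the 10 genes passed the test between groups. The values are RPKM, reads per kilobase of exon and per 1000000 reads, rescaled so that each library is divided by its own total, and the test was limma on log2(RPKM + 0.1). All 10 were among the 42989 rows tested, those with a mean of at least 0.1 RPKM, and 0 had an adjusted p under 0.05, where 0% of all rows did. Their adjusted p ran from 0.705 to 0.998. At an unadjusted p under 0.05 there was 1, Hormad1, on the lower side, where 6.42% of all rows had one, 5.09% higher and 1.33% lower. Hormad1 had a mean of 0.844 RPKM in controls and 0.0590 in Zscan4 OE. It thus met the filter of 0.1 RPKM through the controls alone, and a row that does so can only be lower in Zscan4 OE. The groups did not overlap for Spo11 and Mei4, which were higher in both Zscan4 OE libraries, and for Hormad1, which was lower. Non-overlapping groups in 3 of 10 genes, 2 higher and 1 lower, compare with 29.7% of all tested rows, 19.6% higher and 10.1% lower. Among the 19012 rows with 20 reads or more, which hold 9 of the 10 genes, 0.0263% of rows and none of the 9 had an adjusted p under 0.05. There Spo11 and Dmc1 had an unadjusted p of 0.0276 and 0.0433 (limma adjusted p = 0.943 and 0.971), where 5.03% of rows were under 0.05. The estimate was positive for 8 genes and negative for 2, and for 5 and 5 when each library was centred on its median. The median log2 difference of the 10 was 0.45, where all rows had a median of 0.28 and 62% were positive. A lower value could mean fewer cells with the locus open or less opening in each cell, and these cannot be told apart in bulk libraries.

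**Figure D1:**
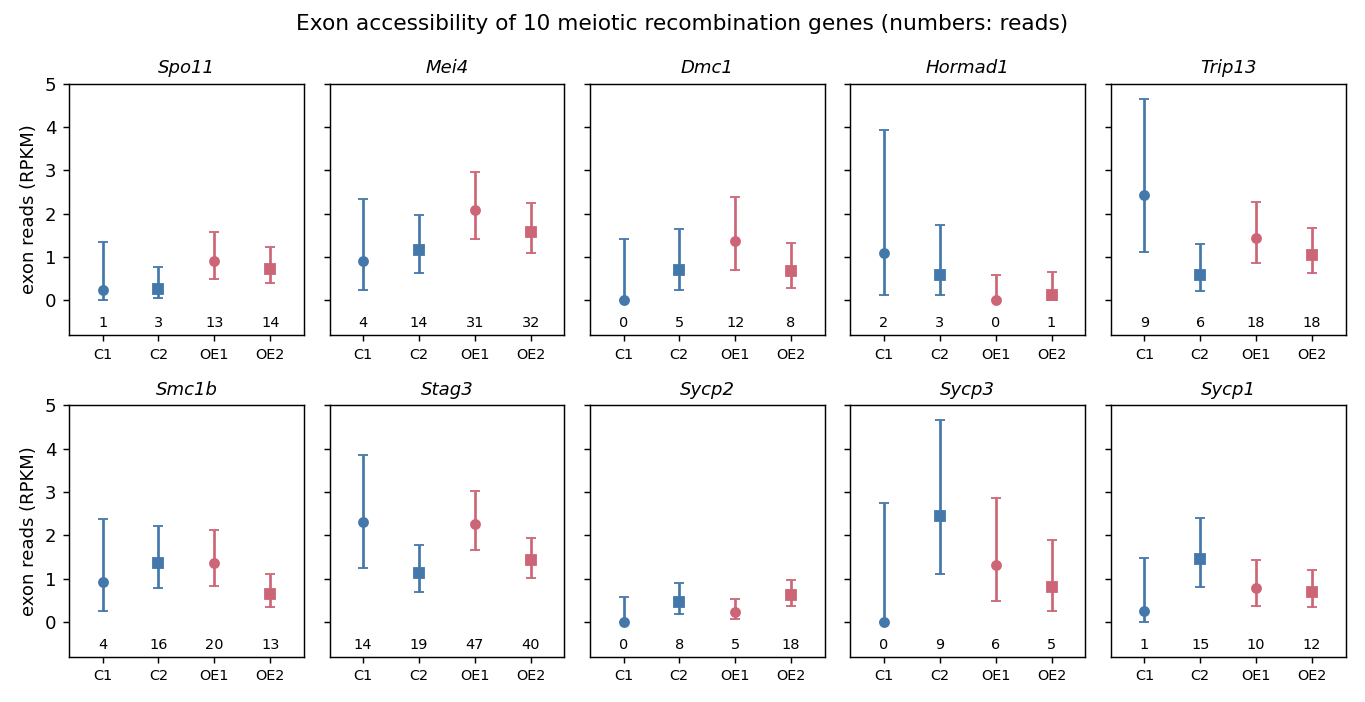
Exon accessibility of the 10 genes in RPKM on the vertical axis for control 1 and 2 (C1, C2, blue) and Zscan4 OE 1 and 2 (OE1, OE2, red), with exact Poisson 95% intervals as bars and the number of reads below each point. Spo11 and Mei4 lie higher in both Zscan4 OE libraries and Hormad1 lower, while the intervals of a control and a Zscan4 OE library overlap in each of these genes.

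The 2 genes of break formation were higher in both Zscan4 OE libraries than in both controls, without passing the test. Spo11 encodes the enzyme that cuts the DNA, and its row (chromosome 2, 172977379 to 172993576, GRCm38) had a feature length of 3921 bp. It had 1 and 3 reads in controls 1 and 2, which is 0.240 and 0.264 RPKM, and 13 and 14 reads in Zscan4 OE 1 and 2, or 0.919 and 0.729 RPKM per library. Both controls were low and alike, and the lower Zscan4 OE value was 2.77 times the higher control value. The group means were 0.252 ± 0.0164 and 0.824 ± 0.135 RPKM (SD, n = 2), a ratio of 3.27, and the log2 difference was 1.39 (SE 0.623; limma adjusted p = 0.869). The unadjusted p was 0.0832 (limma), and the difference between the means was larger than either SD. The closeness of the controls rests on 1 and 3 reads and is far narrower than their counting error, so it is a poor measure of replicate spread. The reads of each group added together gave a ratio of 3.15 with an exact 95% interval of 1.10 to 12.4, which covers counting error only. The 95% Poisson interval of control 1, 0.00608 to 1.34 RPKM, contained both Zscan4 OE values. That of control 2, 0.0543 to 0.770 RPKM, contained the value of Zscan4 OE 2 but not that of Zscan4 OE 1. The interval of Zscan4 OE 1, 0.490 to 1.57 RPKM, overlapped it.

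Mei4 encodes a partner that SPO11 needs to cut. Its row on chromosome 9 (81863670 to 82206007) had 4121 bp of exons in a span of 342338 bp, and 4, 14, 31 and 32 reads in the 4 libraries. The controls stood at 0.914 and 1.17 RPKM, and the Zscan4 OE libraries at 2.09 and 1.58. Both Zscan4 OE libraries were above both controls, by 1.35 times at the closest pair. The means were 1.04 ± 0.181 and 1.84 ± 0.355 RPKM (SD, n = 2), with a log2 difference of 0.76 (SE 0.454; limma adjusted p = 0.869). Added together, the reads gave a ratio of 1.63 with an interval of 0.954 to 2.93, so at this depth the difference was within counting error.

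Dmc1, the meiotic recombinase that pairs a broken end with the homologue (chromosome 15, 79561497 to 79605159), had 0, 5, 12 and 8 reads. This gave the controls 0 and 0.707 RPKM and the Zscan4 OE libraries 1.37 and 0.671, and the 0 reads of control 1 allow up to 1.16 RPKM at 3 reads, or 1.43 at the end of its two-sided Poisson interval, which contains both Zscan4 OE values. Control 2 and Zscan4 OE 2 were alike and the groups overlapped. The log2 difference of 1.90 (SE 1.23; limma adjusted p = 0.869) rested on the 0 in control 1, and it was 0.40 without that library and 3.41 without control 2. The ratio of added reads was 1.86, with an interval of 0.679 to 6.36.

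Hormad1 was the gene with lower values in Zscan4 OE and also the one with the fewest reads. The protein marks unsynapsed axes and promotes break formation. Its row (chromosome 3, 95559677 to 95587863) had 2 and 3 reads in the controls, or 1.09 and 0.598 RPKM, and 0 and 1 reads in Zscan4 OE, or 0 and 0.118 RPKM. The 0 of Zscan4 OE 1 allows up to 0.481 RPKM at 3 reads, or 0.592 at the end of its two-sided Poisson interval, both below the 2 control values. The interval of Zscan4 OE 2 reached 0.658 RPKM, above the value of control 2. Those of controls 1 and 2 were 0.132 to 3.94 and 0.123 to 1.75 RPKM and overlapped the intervals of both Zscan4 OE libraries. The log2 difference was −2.63 (SE 0.905), with an unadjusted p of 0.0386 and an adjusted p of 0.705 (limma). The added reads, 5 and 1, gave a ratio of 0.0932 with an exact interval of 0.00197 to 0.833, again for counting error only. With 6 reads in all, the gene did not enter the fits on rows with 20 reads or more.

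Trip13, whose ATPase strips HORMAD proteins from synapsed axes, showed how far replicates of a group can lie apart. Its row (chromosome 13, 73912450 to 73937795) had 9, 6, 18 and 18 reads, so the controls were at 2.44 and 0.595 RPKM and the Zscan4 OE libraries at 1.44 and 1.06. The controls differed 4.10-fold and enclosed both Zscan4 OE values. The control mean was 1.52 ± 1.31 RPKM and the Zscan4 OE mean 1.25 ± 0.268 (SD, n = 2), and the log2 difference was 0.01 (SE 0.773; limma adjusted p = 0.998). The sign was opposite for the ratio of means, 0.822, and the estimate was 0.94 without control 1 and −0.93 without control 2.

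The 2 cohesin genes gave no difference beyond the replicates. Stag3, the meiotic stromal antigen subunit (chromosome 5, 138272514 to 138312397), had the most reads of the 10, with 14, 19, 47 and 40. Its controls stood at 2.30 and 1.14 RPKM and its Zscan4 OE libraries at 2.27 and 1.42, so each group had one higher and one lower library. Its log2 difference was 0.14 (SE 0.561; limma adjusted p = 0.988), and the added reads gave a ratio of 1.23 with an interval of 0.815 to 1.89. Smc1b, the meiotic SMC subunit (chromosome 15, 85064689 to 85131957), had 4, 16, 20 and 13 reads, or 0.931, 1.36, 1.37 and 0.656 RPKM in the 4 libraries. Control 2 and Zscan4 OE 1 were nearly equal, and the lowest value was in Zscan4 OE 2. Its log2 difference was −0.22 (SE 0.579; limma adjusted p = 0.972).

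The synaptonemal complex genes had a low control 1 and otherwise overlapping values. Sycp3, a lateral element gene (chromosome 10, 88459587 to 88473236), had 0, 9, 6 and 5 reads on 1264 bp, the shortest feature of the 10. The controls were at 0 and 2.45 RPKM and the Zscan4 OE libraries at 1.32 and 0.807, and the 0 of control 1 allows up to 2.24 RPKM at 3 reads, or 2.75 at the end of its two-sided Poisson interval, which contains control 2. The 2 controls lay on either side of both Zscan4 OE libraries. The log2 difference of 1.17 (SE 1.67; limma adjusted p = 0.903) became −1.17 without control 1, and the ratio of means was below 1, at 0.866. Sycp2, the other lateral element gene (chromosome 2, 178345295 to 178407776), had 0, 8, 5 and 18 reads, or 0, 0.462, 0.232 and 0.616 RPKM. Its log2 difference was 1.04 (SE 1.22; limma adjusted p = 0.873) and turned to −0.20 without control 1. Sycp1, the transverse filament gene (chromosome 3, 102818499 to 102936100), had 1, 15, 10 and 12 reads, or 0.265, 1.45, 0.780 and 0.689 RPKM. Its controls differed 5.48-fold and enclosed the Zscan4 OE values, which were within 1.13-fold of each other, and its log2 difference was 0.15 (SE 0.873; limma adjusted p = 0.988). In these 3 genes together control 1 had 1 read, or 0.942 RPM, while control 2 had 32, or 11.0 RPM, and Zscan4 OE had 5.82 and 7.14 RPM. Control 1 is the smallest library, and the part of its depth in these values was not tested.

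**Figure D2:**
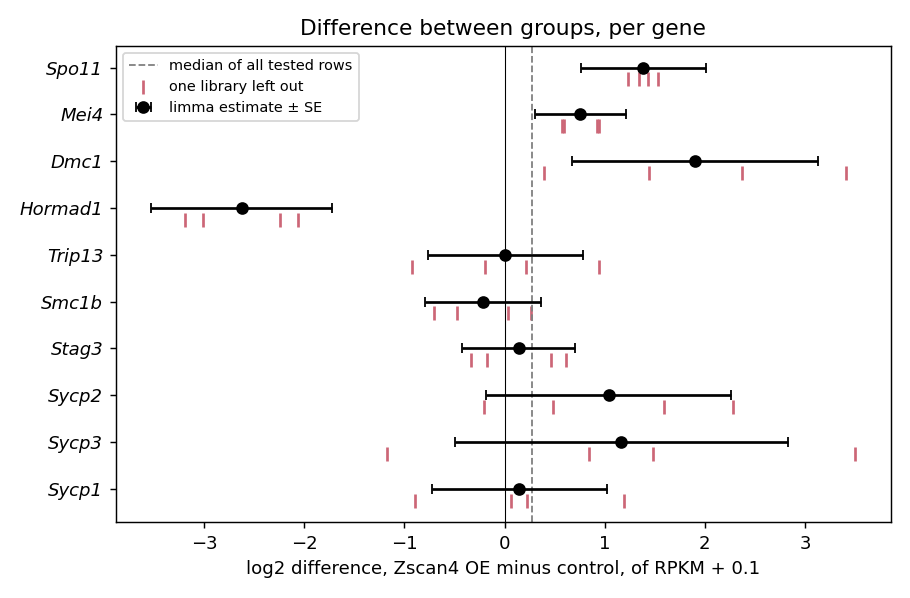
Log2 difference of RPKM + 0.1, Zscan4 OE minus control, on the horizontal axis for the 10 genes, as limma estimates with SE (black), with red marks for the fits that leave out 1 library each and a dashed line at the median of all tested rows, 0.28. The marks of Spo11 and Mei4 stay above 0 and those of Hormad1 below, Dmc1 ranges from 0.40 to 3.41, and the marks of the other 6 genes fall on both sides of 0. The groups of Spo11, Mei4 and Hormad1 do not overlap, so leaving out 1 library cannot move their marks across 0.

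Summed over the 10 genes, accessibility did not separate the groups. The sums were 33.0 RPM in control 1 (35 reads, Poisson 95% interval 23.0 to 45.9) and 33.8 in control 2 (98 reads, 27.4 to 41.1). In Zscan4 OE they were 44.9 (162 reads, 38.3 to 52.4) and 32.9 (161 reads, 28.0 to 38.3). Zscan4 OE 1 was the highest and Zscan4 OE 2 the lowest of the 4, so the groups overlapped, with means of 33.4 ± 0.549 and 38.9 ± 8.53 RPM (SD, n = 2) and a ratio of 1.17. Without Zscan4 OE 1 the ratio was 0.985. By role, Spo11 and Mei4 together went from 4.71 RPM in control 1 and 5.85 in control 2 to 12.2 and 9.39 with Zscan4 overexpressed, a ratio of 2.04. Each of these genes was higher in both Zscan4 OE libraries, so their sum had to separate and adds nothing. Its Poisson 95% intervals were 1.53 to 11.0 and 3.41 to 9.37 RPM in the controls. In Zscan4 OE they were 8.87 to 16.4 and 6.87 to 12.5 and overlapped those of the controls. The cohesin pair had 17.0, 12.1, 18.6 and 10.8 RPM, and Hormad1 with Trip13 had 10.4, 3.10, 4.99 and 3.88, both overlapping between groups.

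Per length, the 10 genes were spread over the range of protein-coding genes. In controls the mean RPKM ranked Stag3 first at 1.72 ± 0.820, followed by Trip13, Sycp3, Smc1b, Mei4, Sycp1, Hormad1, Dmc1, Spo11 and last Sycp2 at 0.231 ± 0.326 (SD, n = 2). In none of the 9 pairs of neighbours in this order did the replicates separate. The median of 19240 tested protein-coding genes was 0.883 RPKM, Stag3 lay at percentile 85.6 and Sycp2 at 7.19. In Zscan4 OE Stag3 and Mei4 led at 1.85 ± 0.601 and 1.84 ± 0.355, and Hormad1 was last at 0.0590 ± 0.0835 (SD, n = 2). Neighbours separated in 3 of 9 pairs there, between Mei4 and Trip13, Sycp1 and Sycp2, and Sycp2 and Hormad1. Spo11 stood at percentile 8.06 of protein-coding genes in controls and 40.9 in Zscan4 OE, and Mei4 at 60.4 and 87.5. Dmc1, whose groups overlapped, went from 12.8 to 55.6, and Hormad1 from 47.3 to 0.551. Control and Zscan4 OE reads behind these percentiles were 4 and 27 for Spo11, 18 and 63 for Mei4, 5 and 20 for Dmc1 and 5 and 1 for Hormad1. The percentiles carry no counting interval.

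Annotation can blur some of these values. The span of Smc1b overlaps that of Fam118a by 52892 bp, the span of Sycp3 overlaps Chpt1 by 3724 bp, and that of Stag3 overlaps Gpc2 by 6370 bp and Gal3st4 by 544 bp. Among genes of other kinds, the span of Spo11 overlaps the long noncoding RNA gene Gm52538 by 1742 bp, that of Hormad1 the long noncoding RNA gene Gm40097 by 1983 bp, and that of Mei4 the pseudogene Gm19228 by 711 bp. In all, 9 of the 10 genes share bases with another annotated gene. The labels used here do not say how reads in shared exons were assigned, and ATAC-seq reads carry no strand. A pseudogene copy, Sycp1-ps1, has its own row with 0, 1, 1 and 6 reads, so reads of Sycp1 that match both copies are uncertain.

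The values as deposited give another picture of the same reads. In the table each value had been divided by one of 8 totals in turn, and none of the 10 genes had the 4 libraries' own totals. The total used was from 0.217 to 4.62 times the library's own, and the 10 genes fell on 5 different steps of the turn. Trip13 read 1.08, 0.774, 4.88 and 1.79 RPKM as deposited, with both Zscan4 OE values above the controls, and 2.44, 0.595, 1.44 and 1.06 after rescaling. Stag3 read 0.677, 0.676, 3.26 and 2.40 as deposited, a ratio of means of 4.19, and 1.07 after rescaling. As deposited, 5 of the 10 genes (Spo11, Dmc1, Trip13, Stag3 and Sycp2) had both Zscan4 OE values above both controls, and of these Spo11 alone did after rescaling. Mei4 and Hormad1 went the other way and separated only after rescaling. The median log2 difference of all tested rows was 1.40 as deposited. The share of all rows that separated as deposited was not counted, so the 5 of 10 has no base to be read against. The control 2 value of Mei4, 3.20 as deposited, divided by the total of the smallest library, was the highest of its 4. Hormad1 read 0.398, 0.720, 0 and 0.545 as deposited, which overlap, with a ratio of means of 0.487 that was 0.0700 after rescaling. The lower values of Hormad1 in both Zscan4 OE libraries thus rest on the rescaling.

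**Figure D3:**
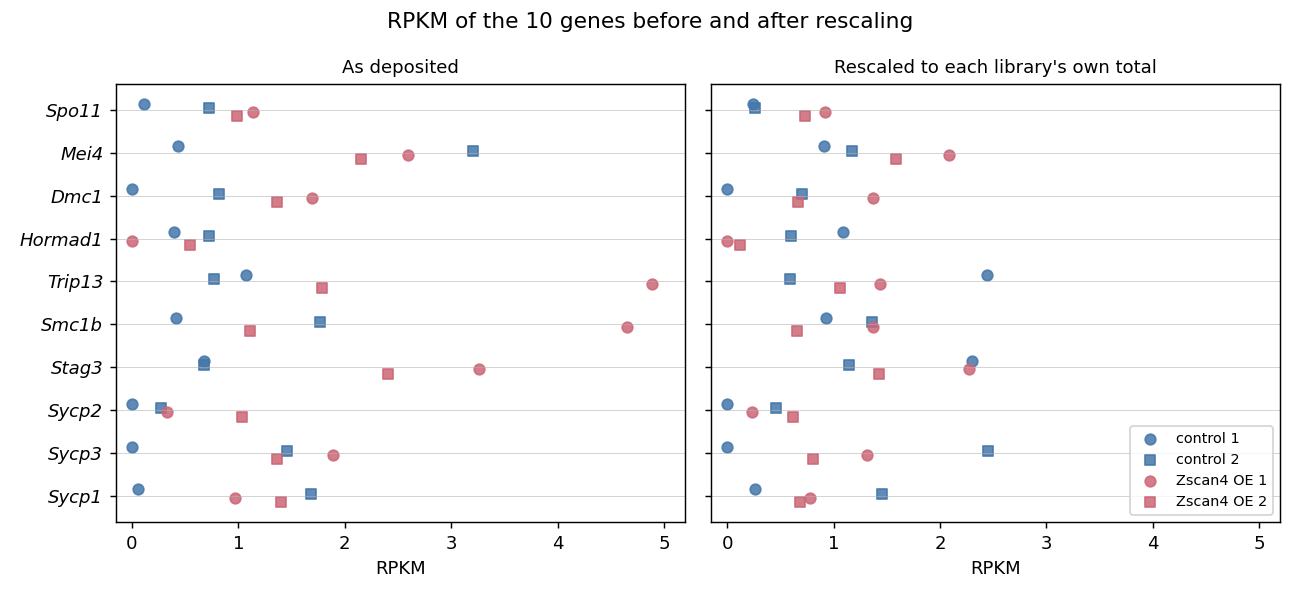
RPKM on the horizontal axis for the 10 genes in control 1 and 2 (blue circle and square) and Zscan4 OE 1 and 2 (red circle and square), as deposited on the left and divided by each library's own total on the right. The separation of Trip13 and Stag3 on the left, where Trip13 reaches 4.88, is absent on the right, and that of Mei4 and of Hormad1 appears on the right.

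Other genes of meiosis did not pass either. Of 60 genes in 7 lists 55 were matched in the table and all 55 were tested, of which 30 had a log2 difference above 0 and 25 one below it, and 0 passed over all rows. Groups did not overlap in 8 higher and 8 lower genes, 29.1% of the 55, beside 29.7% of all rows. The median log2 difference was 0.06, which is −0.21 relative to that of all rows. In the fit on rows with 20 reads or more the relative value was −0.08, so the base used matters. Their summed reads, 264 and 210 RPM for the controls against 257 and 186 for Zscan4 OE, overlapped. Of 5 other genes of break formation 1 lay above 0 and 4 below it, with a list median of −0.67 relative to all rows. Prdm9, which marks the sites of breaks, was at 3.72 and 2.80 RPKM without and 2.06 and 1.23 RPKM with overexpression, with a log2 difference of −0.97 (SE 0.486; limma adjusted p = 0.869). Iho1, a partner of MEI4, was at 0.521 ± 0.275 and 1.09 ± 0.636 RPKM (SD, n = 2).

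The single gene of these lists with an unadjusted p under 0.05 was Syce2, which encodes a protein of the central element of the synaptonemal complex. It had 1 and 3 reads in the controls, or 0.479 and 0.525 RPKM, and 12 and 13 in Zscan4 OE, or 1.69 and 1.35 RPKM. Its log2 difference was 1.42 (SE 0.486), with an unadjusted p of 0.0377 and an adjusted p of 0.697 (limma), and the other 3 central region genes tested had 1 positive and 2 negative differences. Syce3 had the most negative difference of them, with a control mean of 2.95 ± 0.648 RPKM and a Zscan4 OE mean of 1.99 ± 0.729 (SD, n = 2). Of 13 genes of strand exchange and repair 11 were positive, where 62% of all rows were, and the list's median was −0.12 relative to all rows. Its highest statistic was that of Mnd1, a cofactor of DMC1, at 2.21 ± 1.45 and 4.84 ± 2.56 RPKM, and Brca2, which loads recombinases, was at 0.708 ± 0.0730 and 0.460 ± 0.270 (SD, n = 2). Of 8 axis and cohesin genes 3 were positive, with Rad21l at 0.672 ± 0.656 and 0.826 ± 0.223 RPKM and Stag1, the mitotic counterpart of Stag3, at 1.52 ± 0.453 and 0.668 ± 0.0873 (SD, n = 2). Of 12 crossover genes 5 were positive. The nuclease gene Mus81 was at 1.65 ± 0.283 and 2.38 ± 0.372 RPKM, and Cntd1, which acts in crossover maturation, at 1.61 ± 0.473 and 0.904 ± 0.495 (SD, n = 2).

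**Figure D4:**
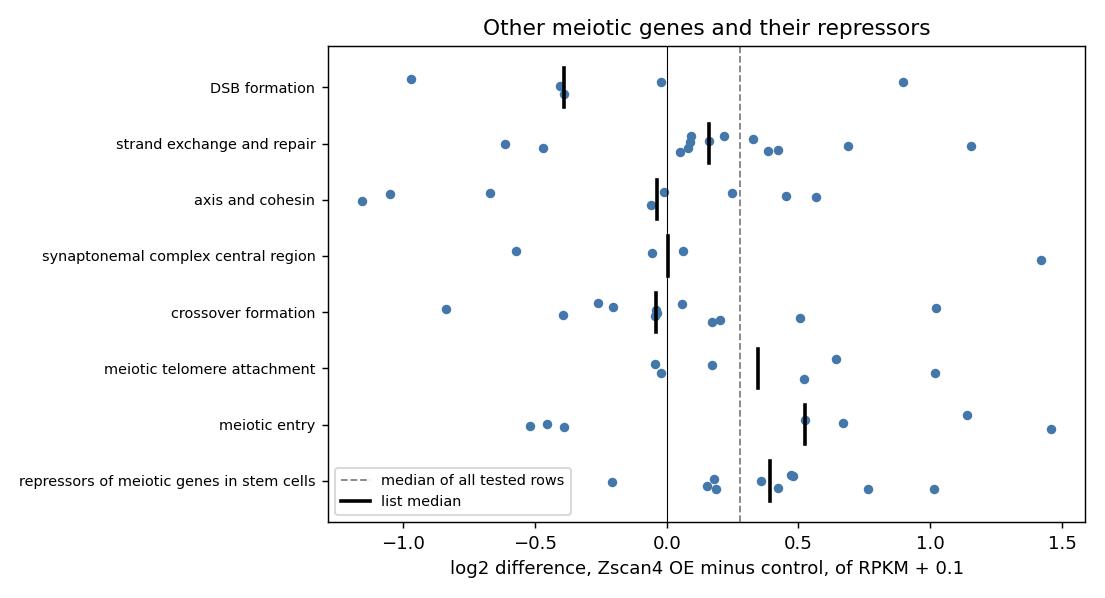
Log2 difference of RPKM + 0.1, Zscan4 OE minus control, on the horizontal axis for each tested gene (point) of 7 meiotic lists and of the repressor list, with a black bar at each list's median and a dashed line at the median of all tested rows, 0.28. Points of every meiotic list lie on both sides of 0, and Syce2 is the point at 1.42.

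Genes that tie meiotic telomeres to the nuclear envelope had the largest share of separated groups of the 7 lists, in a list of only 6 genes. Terb1, Sun1, Kash5 and Spdya, 4 of 6, were higher in both Zscan4 OE libraries than in both controls, beside 19.6% of all rows, and are named after their values were seen. Spdya, a kinase activator at telomeres, had group means of 0.606 ± 0.251 and 1.35 ± 0.592 RPKM, and Terb2, with the most negative statistic, at 0.934 ± 0.0609 and 0.911 ± 0.196 (SD, n = 2). The closest values of Terb1 were 1.256 in control 1 and 1.258 in Zscan4 OE 1. No gene of the list had an unadjusted p under 0.05, and its median was 0.07 relative to all rows. The list labelled meiotic entry also holds germ cell genes with other roles, Mael among them. Of its 7 genes Mael was higher without overlap, beside 19.6% of all rows, and Stra8, Meioc and Ythdc2 were lower, beside 10.1%. Stra8 and Meioc are named after their values were seen. Mael, a piRNA factor, was at 0.769 ± 0.318 and 1.78 ± 0.481 RPKM, and Ythdc2, an RNA-binding helicase, at 0.871 ± 0.0306 and 0.581 ± 0.106 (SD, n = 2).

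The genes of the repressors that hold meiotic genes off in stem cells had no call. All 10 were tested, 9 had a positive difference and 0 passed, and the median was 0.11 relative to all rows. Max, the E-box partner of MGA, had group means of 0.536 ± 0.352 and 1.19 ± 0.718 RPKM, control first, and Dnmt1, the maintenance DNA methyltransferase, at 1.75 ± 0.492 and 1.48 ± 0.0922 (SD, n = 2). E2f6, whose protein binds E2F-type sites, was higher without overlap, with 2, 6, 11 and 14 reads, as were Dnmt3a and Setdb1, and these 3 are named after their values were seen. Groups that do not overlap in 3 of 10 genes compare with 29.7% of all rows.

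With few reads in 4 libraries many rows share a pattern. Likeness was the Euclidean distance between each gene's 4 shares of its summed RPKM, over 19003 other rows with 20 reads or more. Nutm1 had the same shares as Spo11 (11.2%, 12.2%, 42.7% and 33.9%), and Pycrl and Syce2 followed at distances of 0.0129 and 0.0144. Cnnm2, Cluap1 and Ush1c were nearest to Mei4, at 0.00849 to 0.00876, and Slc2a9, Npas2 and Relb to Stag3, at 0.00281 to 0.00799. Tspyl1, Msln and Gm47472 were nearest to Smc1b, and Gm10138, Dhrs13os and Gm27813 to Trip13. The rows nearest to Dmc1 were Gm37174, Hapln2 and Gm43915, and those nearest to Sycp2 were Smarca1, Emcn and Gm37806. Gm46378, with the same shares as Sycp3, was followed by Trim54 and Gm42585, and Gm6145, G6pc and Pcdh11x were nearest to Sycp1. Hormad1 had too few reads for this comparison.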

How the data were processed

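ATAC-seq was done on 2 control and 2 Zscan4 OE libraries of J1 embryonic stem cells. Per the submitters' processing notes the authors used Trimmomatic, Bowtie2 and featureCounts with build mm10. Versions, annotation, read filters, duplicates and any Tn5 shift are not stated in the labels used here. The deposited values are RPKM per the labels, 1 per gene and library.

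Each RPKM value was a whole number of reads divided by a whole length and by one of 8 totals in turn. Short RNA genes with an annotated length, 2444 of them, gave the totals. Of 38361 rows with at least 2 values above 0, 38361 gave whole reads at exactly 1 step of the turn, within the rounding of the printed digits. A common factor of a row's reads and length cannot be seen, so both are minimum values, and the recovered length equalled the annotated one in 86.7% of 1131 short genes with at least 2 values above 0. Totals were placed on columns so that the share of reads on exons was most alike (a ratio of 1.36 between libraries, and 4.17 or more for the other placements in order), and values were rescaled to each library's own total. The placement is inferred. Scaling by exon reads, which does not use it, was an alternative.

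Groups were compared with limma 3.58.1 (R 4.3.3), fitted to log2(RPKM + 0.1), with eBayes moderation by trend, two-sided, with no covariate, for rows with a mean of at least 0.1 RPKM and Benjamini-Hochberg adjustment over all of them. The pseudocount shrinks the change of a low gene whose values are all above 0, while a single library at 0 can enlarge or turn a log2 difference against the ratio of means, as for Dmc1, Sycp2 and Sycp3. Both steps were tested on simulated data. The recovery found every simulated total and step of the turn and most reads. limma gave most simulated large changes the right sign but called hardly any at this depth and number of libraries. The simulated spread between replicates was set by hand and not estimated from these libraries. The simulation is thus no measure of the power of this comparison. A missing call still does not show that values did not differ. Intervals are exact Poisson or binomial 95% intervals and cover counting error only, and 3 reads is the limit that 0 reads allow, a one-sided bound below the end of the two-sided interval. An exact permutation test of 2 against 2 cannot go below p = 0.333, so none was run. Coordinates and promoters are RefSeq's, GRCm38, the assembly behind mm10.

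The members, lists and tests were chosen with earlier results of these data known. Text names all 10 members, the gene with the highest and lowest statistic of each list, any at an unadjusted p under 0.05, and the 3 rows nearest in pattern to each member with 20 reads or more. Genes outside this rule are marked as named after their values were seen. Of 60 list genes 5 were not matched by symbol or RefSeq synonym.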

Additional observations from a re-analysis of the deposited data

How the results depend on the processing

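Of 138 refits of single members 119 kept the sign of the estimate and stayed without a call, and 19 turned it. Spo11, Mei4, Dmc1 and Hormad1 kept theirs in each setting that could fit them (Hormad1 not in the 2 with 20 reads or more), with ranges of 0.54 to 1.66, 0.47 to 0.95, 0.40 to 3.51 and −4.51 to −0.79. The groups of Spo11, Mei4 and Hormad1 do not overlap, so leaving out 1 library or changing the pseudocount could not have turned their sign. Trip13 turned to −0.065 with a pseudocount of 1, −0.047 when scaled by exon reads and −0.27 when libraries were centred on their median, where Stag3 was at −0.13 and Sycp1 at −0.13. Sycp1 was also at −0.023 with a pseudocount of 1, −0.45 with quantile normalization and −0.59 with voom on the recovered reads, where Sycp3 was at −0.58. Smc1b was at 1.29 in the values as deposited. With 1 library left out, estimates ran from −0.93 to 0.94 for Trip13, −0.70 to 0.26 for Smc1b, −0.34 to 0.62 for Stag3, −0.20 to 2.29 for Sycp2, −1.17 to 3.50 for Sycp3 and −0.90 to 1.19 for Sycp1.

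Over all rows 0 were called higher and 0 lower, and 2189 and 573 had an unadjusted p under 0.05. The median of all rows, 0.28, was 0.00 when libraries were centred, −0.04 with quantile normalization, 0.10 with a pseudocount of 1 and 1.40 as deposited. Among rows with 20 reads or more limma called 4 higher and 1 lower, and voom 0 and 1, none of them a member. Leaving out 1 library gave from 0 to 4340 higher and from 0 to 9 lower rows, with 4340 and 9 without Zscan4 OE 1, 3860 and 2 without Zscan4 OE 2, and no member among them. The cause was not tested. The median of the 7 meiotic lists, −0.21 relative to all rows with an SD of 0.202 from the replicates, moved by less than that SD in each setting and stayed negative, at −0.03 with voom, −0.08 with 20 reads or more and −0.30 to −0.14 with 1 library left out. That of the repressor list was 0.11, and 0.25 with 20 reads or more, 0.25 with voom, and −0.012 to 0.22 with 1 library left out. The ratio of the summed members was 1.09 when scaled by exon reads and 0.985 to 1.35 with 1 library left out. With the replicate number as a block 0 rows were higher and 0 lower. Samples of the same number shared little, with a correlation of deviations of 0.0423 over tested rows and 0.129 over rows with 20 reads or more, so the numbers were not taken as pairs.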
